A study of Mus musculus with 6 samples.

Results

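The genes described here encode the variable part of the antibody kappa light chain (Igkv). They are the rows of the deposited RNA-seq table with the biotype IG_V_gene and a symbol that starts with Igkv, 100 of the 54532 genes listed. Bulk polyA RNA-seq was performed on 6 colon tumors, 3 from Tmem173fl/fl mice and 3 from Tmem173fl/fl mice that also carried a tamoxifen-inducible Cre (Lyz2-Cre ert2, written Lzym-Creert2 in the series labels, here Tmem173iΔmye). In all 6 mice tumors had been induced with azoxymethane (AOM, a carcinogen) and 3 cycles of dextran sulfate sodium (DSS, which injures the colon epithelium). All 6 then received tamoxifen, so the controls shared the floxed Tmem173 alleles and the drug and lacked the Cre. Tmem173 encodes STING, a sensor of the cyclic dinucleotides made in response to cytosolic DNA, and the Cre driver restricts its deletion to Lyz2-expressing myeloid cells. B cells and plasma cells, which make the transcripts described here, were thus not the targeted cells. The study asked how loss of myeloid STING after tumor formation acts on the tumors, and the question addressed here is which kappa variable genes each tumor used and how evenly.

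The kappa chain is encoded by a variable (V), a joining (J) and a constant (C) segment. While a B cell develops in the bone marrow, Rag1 and Rag2 cut the DNA and join a V gene to a J gene, and the joined exon is spliced to the constant exon Igkc. The choice is inherited by all descendants of that cell, so a plasma cell clone that expands and secretes antibody carries the same V gene in every transcript. The colon lamina propria normally holds many plasma cells that secrete IgA. In bulk RNA the share of reads on a V gene therefore mixes how many cells use it with how much antibody RNA each cell makes, and these cannot be told apart.

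All 100 genes lay on chromosome 6 of GRCm38, between positions 67555497 and 70704177, upstream of Igkc at chr6:70726435-70726966. All 100 matched the GENCODE M21 annotation with identical coordinates, and each had 2 exons, a leader exon and the V exon. Their lengths in the table ran from 338 to 501 bases with a median of 362. The members were transcribed from either strand, 38 in the direction of Igkc and 62 against it. A V gene on the same strand as Igkc joins by deletion of the DNA in between and a V gene on the opposite strand by inversion.

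The sequences below are the last 300 coding bases of the V exon of the 2 genes that led usage, Igkv1-110 (chr6:68270968-68271267, plus strand) and Igkv1-117 (chr6:68121528-68121827, plus strand). They are shown because these genes carried much of the dominance described below and because they are nearly the same. Sequences are the GRCm38 reference, 5′ to 3′, and capitals mark the bases that differ between the pair.
Igkv1-110: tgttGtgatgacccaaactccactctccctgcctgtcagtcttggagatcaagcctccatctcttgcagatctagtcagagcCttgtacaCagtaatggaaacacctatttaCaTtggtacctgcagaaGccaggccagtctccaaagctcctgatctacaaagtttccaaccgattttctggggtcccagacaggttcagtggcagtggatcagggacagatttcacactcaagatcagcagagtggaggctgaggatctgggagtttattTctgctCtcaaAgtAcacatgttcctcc
Igkv1-117: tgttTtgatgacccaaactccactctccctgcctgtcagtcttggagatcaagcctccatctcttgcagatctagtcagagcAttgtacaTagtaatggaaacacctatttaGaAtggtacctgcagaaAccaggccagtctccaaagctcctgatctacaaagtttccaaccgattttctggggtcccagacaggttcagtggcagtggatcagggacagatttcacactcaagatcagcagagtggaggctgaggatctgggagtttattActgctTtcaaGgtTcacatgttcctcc

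The pair differed at 10 of 359 aligned coding bases (97.2% identity), and all 10 differences lay in the stretch shown. In each of these genes 83.5% of all 100-base windows occurred in no other member, and for windows of 50 bases this was 55.8% in Igkv1-110 and 56.5% in Igkv1-117. A short read can thus fit either gene equally well. How the counting treated such reads, and reads that carry somatic mutations, is not given in the sources used here, so the split of reads between the pair is uncertain while their sum is less so. Over all 100 members, 46 had another member at least 95% identical, and the most alike neighbours reached 98.6% identity.

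The next sequences are the last 42 coding bases of the 6 other genes that were most used or stood out in a single tumor. They are shown because this end of the V gene begins the third hypervariable loop, which contacts antigen. Capitals run from the codon of the conserved cysteine to the last germline base, before any joining.
Igkv1-135: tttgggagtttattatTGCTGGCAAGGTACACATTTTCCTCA
Igkv10-96: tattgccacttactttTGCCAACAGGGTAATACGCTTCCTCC
Igkv8-30: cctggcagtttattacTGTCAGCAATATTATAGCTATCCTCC
Igkv6-15: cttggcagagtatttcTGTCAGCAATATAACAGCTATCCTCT
Igkv4-59: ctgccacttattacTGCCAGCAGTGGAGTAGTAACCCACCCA
Igkv3-7: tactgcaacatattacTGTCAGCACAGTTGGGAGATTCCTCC

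These 42 bases lie at chr6:67610467-67610508 for Igkv1-135 (plus strand), chr6:68631963-68632004 for Igkv10-96 (minus strand), chr6:70117061-70117102 for Igkv8-30 (minus strand), chr6:70406469-70406510 for Igkv6-15 (minus strand), chr6:69438218-69438259 for Igkv4-59 (minus strand) and chr6:70607995-70608036 for Igkv3-7 (plus strand). The 12 most used genes were otherwise diverse. Over the 66 pairs among them, coding identity ran from 57.6% to 97.2% with a median of 64.0%.

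The amount of kappa variable RNA differed widely between tumors of the same genotype. The library totals were even, from 15329810 to 16533732 counts. Igkv genes together took 1947, 605 and 764 counts in Tmem173fl/fl tumors 1, 2 and 3, and 4738, 1400 and 1985 in Tmem173iΔmye tumors 1, 2 and 3. As CPM, counts scaled to the library size, these were 127, 40.3 and 45.9 against 299, 88.2 and 126. The mean was 70.9 ± 48.3 CPM in Tmem173fl/fl and 171 ± 112 CPM in Tmem173iΔmye tumors (SD, n = 3 each). The groups overlapped, because Tmem173fl/fl tumor 1 lay above Tmem173iΔmye tumor 2 and level with tumor 3. The mean log2 CPM was 1.28 higher in Tmem173iΔmye tumors, with a pooled SD of 0.90 between tumors of a group. This difference ran from 0.78, without Tmem173iΔmye tumor 1, to 1.797, without Tmem173fl/fl tumor 1.

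Other rows of the kappa locus, which the choice of members did not use, were read beside these totals. Igkc, the single kappa constant gene, had 6805, 1621 and 2913 counts in Tmem173fl/fl and 18067, 5239 and 7028 in Tmem173iΔmye tumors, the same order of tumors as Igkv within each group. Igkv counts amounted to between 26.2% and 37.3% of the Igkc counts. The 60 Igkv rows annotated as pseudogenes, which cannot encode a chain, held between 0 and 5 counts per tumor. Igkc made up 93.1% to 97.3% of the summed counts of Igkc and the lambda constant genes Iglc1, Iglc2 and Iglc3, so kappa was the main light chain in every tumor. The 5 Igkj rows, each of at most 43 bases, held only 9 to 66 counts per tumor and were too sparse for a description of J usage.

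Of the 100 genes, 46 were detected in all 6 tumors, 38 in 2 to 5 tumors and 3 in a single tumor. The remaining 13 had no count in any tumor. They were Igkv2-137, Igkv1-132, Igkv1-131, Igkv20-101-2, Igkv10-95, Igkv4-92, Igkv4-78, Igkv4-71, Igkv5-37, Igkv18-36, Igkv1-35, Igkv8-26 and Igkv8-16. For 6 of these 13 another member was at least 95% identical. The number detected per tumor was 80, 64 and 60 in Tmem173fl/fl and 78, 76 and 72 in Tmem173iΔmye tumors. The shallowest tumor had 605 Igkv counts. When every tumor was reduced by calculation to 605 counts, the expected number detected was 68.8, 64.0 and 57.6 against 63.5, 67.7 and 61.4. At equal depth all 6 tumors therefore lay between 57.6 and 68.8 detected genes, and the groups overlapped.

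Usage is given below as the share of a tumor's Igkv counts that fell on a gene. Because the members are of similar length, ranking by share or by FPKM, which divides by length, gave nearly the same order, and 11 of the 12 genes with the highest mean share were also among the 12 highest by mean FPKM. The 12 were, in order of mean share, Igkv1-110, Igkv1-117, Igkv1-135, Igkv10-96, Igkv8-30, Igkv6-15, Igkv4-59, Igkv4-91, Igkv3-2, Igkv10-94, Igkv5-43 and Igkv9-120. Together they held a mean of 55.1% of Igkv counts over the 6 tumors. Per length, Igkv1-110 had a mean of 43.7 FPKM and Igkv1-117 of 36.9 FPKM, and the next by FPKM, Igkv4-59 and Igkv10-96, had 13.6 and 13.2.

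**Figure D1:**
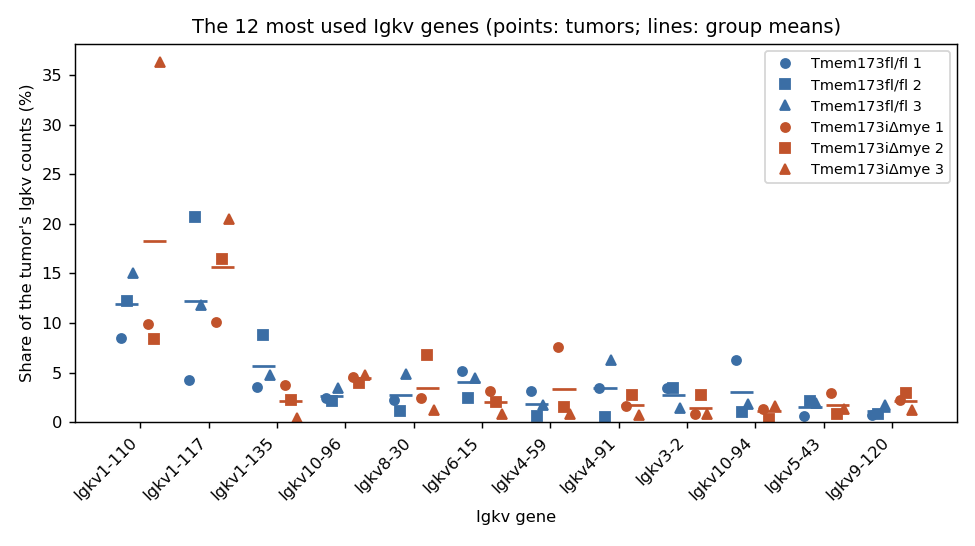
Share of each tumor's Igkv counts (%, vertical axis) for the 12 genes with the highest mean share (horizontal axis). Points are tumors, with a marker for each replicate number, and lines are group means of 3 tumors. Igkv1-110 reached 36.4% in Tmem173iΔmye tumor 3, and outside the leading pair no gene passed 8.76% in any tumor.

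Igkv1-110 held 8.47%, 12.2% and 15.1% of Igkv counts in Tmem173fl/fl tumors 1, 2 and 3 (165, 74 and 115 counts). In Tmem173iΔmye tumors 1, 2 and 3 it held 9.94%, 8.43% and 36.4% (471, 118 and 722 counts). Tumor 3 of the Tmem173iΔmye group stood apart, with an exact binomial (Clopper-Pearson) 95% interval of 34.3% to 38.5%, and the other 5 tumors lay together between 8.43% and 15.1%. Such intervals treat reads as independent draws and cover at most counting error. PCR reads without molecular identifiers are not independent molecules, so the intervals can be too narrow even for that.

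Igkv1-117 held 4.21%, 20.7% and 11.8% in Tmem173fl/fl tumors (82, 125 and 90 counts). Its share was 10.2%, 16.4% and 20.5% in Tmem173iΔmye tumors (481, 230 and 406 counts). Tumor 1 of the Tmem173fl/fl group was the lowest, with a 95% interval of 3.36% to 5.20%, and the groups overlapped. Igkv1-110 and Igkv1-117 filled the first 2 ranks in 5 of the 6 tumors, and they were the only genes among the 10 most used in all 6.

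Summed, which removes the uncertain split between them, the pair held 12.7%, 32.9% and 26.8% of Igkv counts in Tmem173fl/fl and 20.1%, 24.9% and 56.8% in Tmem173iΔmye tumors. The joint level of the pair was 16.1, 13.3 and 12.3 CPM against 60.1, 21.9 and 71.8 CPM, and these groups did not overlap. Among single genes, 6.03% of all tested were apart in this direction, and the pair was chosen for its high share in these same tumors. All other Igkv genes together stood at 111, 27.1 and 33.6 CPM in Tmem173fl/fl and 239, 66.3 and 54.6 CPM in Tmem173iΔmye tumors, and here the groups overlapped. Tmem173iΔmye tumor 3 thus had the highest level of the pair and a level of the other genes below that of Tmem173fl/fl tumor 1.

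The gene next in rank differed from tumor to tumor. Tmem173fl/fl tumor 1 was the exception to the pair's lead, with Igkv10-94 (6.27%) in second place and Igkv6-15 (5.14%) behind it. The next gene after the pair was Igkv1-135 (8.76%) in Tmem173fl/fl tumor 2 and Igkv4-91 (6.28%) in Tmem173fl/fl tumor 3. In the Tmem173iΔmye group it was Igkv4-59 (7.62%) in tumor 1, Igkv8-30 (6.79%) in tumor 2 and Igkv10-96 (4.79%) in tumor 3. Across the tumors 28 genes reached a top 10, and 14 of them did so in a single tumor.

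Igkv1-135, of the same V subgroup as the leading pair but only 78.3% identical to Igkv1-110, had shares of 3.49%, 8.76% and 4.71% in Tmem173fl/fl tumors and 3.78%, 2.21% and 0.403% in Tmem173iΔmye tumors. It was lowest in Tmem173iΔmye tumor 3, the tumor in which the pair was highest. Igkv10-96 was the steadiest of the leading genes, with 2.47%, 2.15% and 3.40% against 4.54%, 3.93% and 4.79%. Its shares did not overlap between the groups.

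Several genes were prominent in a single tumor. Igkv4-59 reached 7.62% in Tmem173iΔmye tumor 1 (361 counts) and lay between 0.661% and 3.18% in the other 5 tumors. Igkv10-94 reached 6.27% in Tmem173fl/fl tumor 1 (122 counts) and lay between 0.357% and 1.83% elsewhere. Igkv3-12 reached 3.33% in Tmem173iΔmye tumor 1 (158 counts) and at most 1.36% elsewhere. For these 3 genes the highest tumor rested on at least 122 counts, and Igkv4-59 and Igkv3-12 were highest in the same tumor.

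Among genes with at least 100 counts in their highest tumor, Igkv3-7 had the largest ratio of the highest to the second highest share, 3.59. It had 0, 2 and 0 counts in Tmem173fl/fl tumors and 137, 6 and 16 in Tmem173iΔmye tumors, and its share in Tmem173iΔmye tumor 1 was 2.89%. Its closest relative, Igkv3-12 at 96.7% identity, was detected in every tumor (12, 5 and 4 against 158, 19 and 15 counts). Both were highest in Tmem173iΔmye tumor 1.

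**Figure D2:**
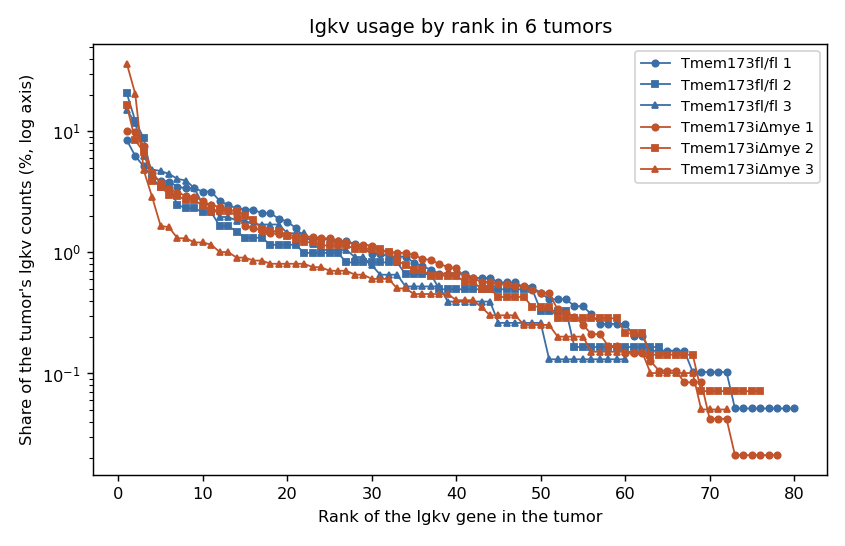
Share of a tumor's Igkv counts (%, log axis) against the rank of the gene within that tumor, with a line for each tumor and only detected genes drawn. Tmem173iΔmye tumor 3 starts at 36.4% and 20.5% and then drops below the other 5 tumors over the following ranks, whereas Tmem173fl/fl tumor 1 starts lowest, at 8.47%.

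Dominance, the share held by the most used genes, was lowest in Tmem173fl/fl tumor 1 and highest in Tmem173iΔmye tumor 3. The most used gene held 8.47%, 20.7% and 15.1% of counts in Tmem173fl/fl and 10.2%, 16.4% and 36.4% in Tmem173iΔmye tumors. The 10 most used held 45.3%, 62.0% and 61.0% against 51.0%, 52.9% and 72.8%. The smallest number of genes that reached 50% of the counts was 12, 6 and 7 against 10, 9 and 2, so in Tmem173iΔmye tumor 3 the pair alone was enough. To reach 90% the tumors needed 42, 36 and 30 against 40, 39 and 32 genes.

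Evenness was summarised by the effective number of genes, the number of equally used genes that would give the same Shannon diversity. It was 44.7, 27.5 and 29.1 in Tmem173fl/fl and 39.2, 36.2 and 15.0 in Tmem173iΔmye tumors. The means were 33.8 ± 9.51 and 30.1 ± 13.2 (SD, n = 3 each), and the difference of -3.66 was smaller than the pooled SD of 11.5. Without Tmem173iΔmye tumor 3 the difference was 3.92, and without Tmem173fl/fl tumor 1 it was 1.81, so its direction turned with single tumors. The inverse Simpson index, which weights common genes more, ordered the tumors alike at the extremes, with 32.0, 13.3 and 17.5 against 24.9, 19.6 and 5.55. Pielou evenness, which is 1 when all detected genes are used equally, was 0.867, 0.797 and 0.823 against 0.842, 0.829 and 0.633.

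**Figure D3:**
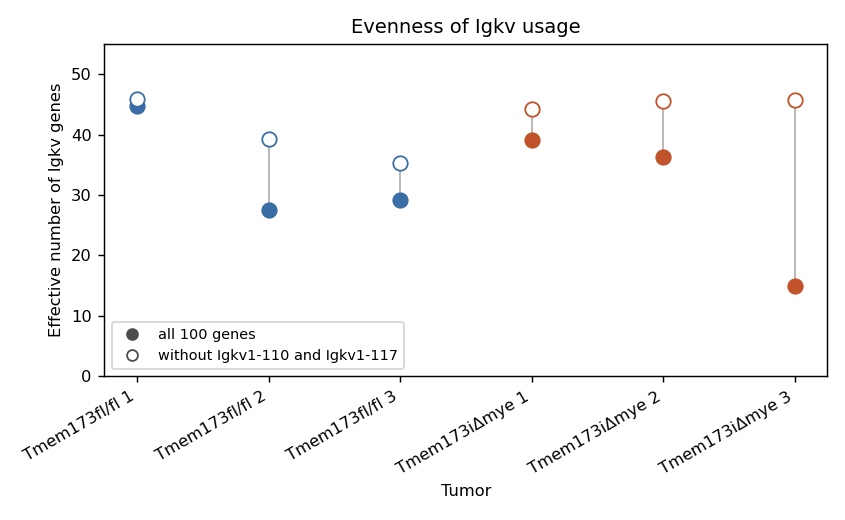
Effective number of Igkv genes (vertical axis, starting at 0) in each tumor, over all 100 genes (filled) and without Igkv1-110 and Igkv1-117 (open). Without the pair the 6 values lie between 35.2 and 45.8, and Tmem173iΔmye tumor 3 moves from 15.0 to 45.8.

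In Tmem173iΔmye tumor 3 the leading pair held 56.8% of Igkv counts. To leave out genes that dominate a tumor raises its effective number by construction, so the values below describe only the remaining genes. With Igkv1-110 and Igkv1-117 left out, a choice made after their shares were seen, the effective number was 45.8, 39.3 and 35.2 in Tmem173fl/fl and 44.2, 45.6 and 45.8 in Tmem173iΔmye tumors. Over these remaining genes Tmem173iΔmye tumor 3 had one of the most even distributions, and 14 genes were needed to reach 50% of its remaining counts. In Tmem173fl/fl tumor 1 the genes left out were not the first 2 in rank. The most used of the remaining genes held 7.18%, 13.1% and 8.59% against 9.54%, 9.03% and 11.1% of the remaining counts. The values of the 2 genotypes overlapped.

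The tumors shared a similar part of their usage whether or not they were of the same genotype. Shared usage, the sum over genes of the smaller of a gene's shares in 2 tumors, ran from 56.1% to 65.1% over the 6 pairs of tumors of the same genotype (median 58.9%). Over the 9 pairs of different genotype it ran from 45.5% to 65.1% (median 60.6%). The lowest value joined the most and the least even tumors, Tmem173fl/fl tumor 1 and Tmem173iΔmye tumor 3. Without the leading pair the shared usage of these tumors was 59.9%.

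By V subgroup, the families of related V genes given by the number before the hyphen, subgroup 1 led with a mean of 34.8% of counts from 10 genes. Its share was 16.9%, 43.1% and 34.3% in Tmem173fl/fl and 24.3%, 32.6% and 57.6% in Tmem173iΔmye tumors. Without the leading pair the remaining 8 genes of subgroup 1 held from 1.75% to 15.3% of the remaining counts. Subgroup 1 was thus a large share in every tumor mainly through its pair of leading genes.

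Subgroup 4 is the largest, with 26 genes of which 23 were detected, and its mean share was 16.0%. It held 26.0%, 8.10% and 15.4% in Tmem173fl/fl and 21.8%, 15.7% and 8.92% in Tmem173iΔmye tumors, highest where subgroup 1 was lowest. As shares sum to the whole, a gain by 1 subgroup lowers the others. Subgroup 6 was more stable, between 6.10% and 11.5%, with all 9 of its genes detected. Subgroups 8, 3 and 10 had mean shares of 7.76%, 5.97% and 5.61%. Subgroup 10 had 3 genes, and all of its share came from Igkv10-96 and Igkv10-94, since Igkv10-95 had no count although it is 97.1% identical to Igkv10-94. Subgroups 18 and 20, of 1 gene each, had no count.

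**Figure D4:**
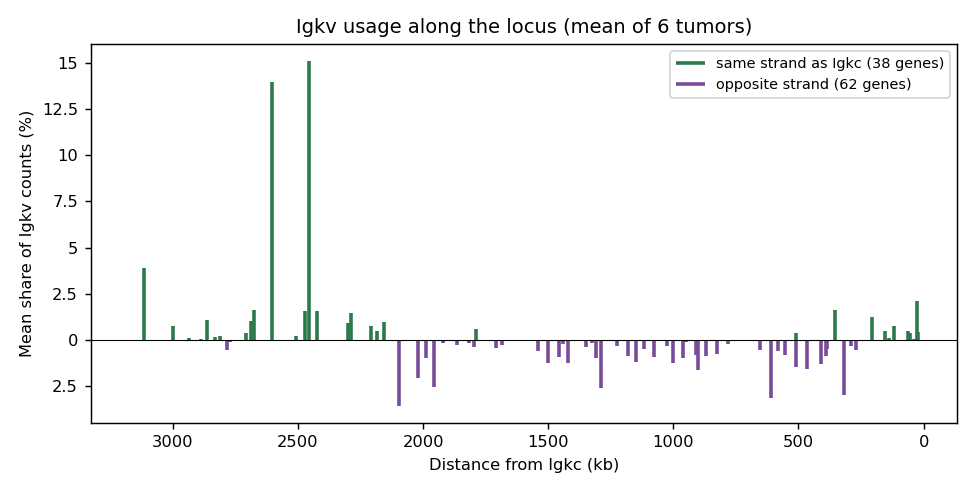
Mean share of Igkv counts over the 6 tumors (%, vertical axis) against the distance of each gene from Igkc (kb, horizontal axis, with Igkc at the right). Bars above 0 are the 38 genes on the strand of Igkc, and bars below 0 are the 62 on the opposite strand. The tallest bars, at 15.1% and 13.9%, are Igkv1-110 and Igkv1-117.

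Along the locus, the 20 genes farthest from Igkc held the largest mean share, 42.4%. In single tumors this was 25.01%, 52.9% and 44.6% in Tmem173fl/fl and 31.6%, 38.9% and 61.5% in Tmem173iΔmye tumors. The leading pair lies in this group. Without the pair, the rest of this group held 10.7% to 29.8% of the remaining counts, and the 20 genes nearest to Igkc held 20.3% to 29.6%. Genes on the strand of Igkc held 40.2%, 71.2% and 51.8% against 45.9%, 51.2% and 69.1% of counts, and without the pair 28.5% to 57.1%.

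The genotypes were compared gene by gene with edgeR's quasi-likelihood test over 16426 genes whose FPKM averaged 0.5 or more. Of the 100 Igkv genes 68 passed this filter, and all 3 tumors of each genotype entered. The labels give separate tumors and do not say more on how the mice were paired or housed, so p-values measure the spread between these tumors. Of the other 32 genes 13 had no count, and the remaining 19 held 151 counts in all, with at most 10 in any tumor. None of the 68 passed an adjusted p of 0.05 in edgeR, as was the case for 0% of all genes tested, and 16 had an unadjusted p under 0.05, all of them higher in Tmem173iΔmye tumors. At that p, 3.23% of all genes tested were higher and 2.9% lower. DESeq2 gave no adjusted p for 2 of the 68 and called 2, Igkv1-117 and Igkv3-7, against 0.165% of all genes. Of these, Igkv3-7 passed the filter only through Tmem173iΔmye tumors, where it is high.

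At the study's threshold, a log2 fold change of 1 or more in either direction with an unadjusted p under 0.05, 16 of the 68 were higher in Tmem173iΔmye tumors and 0 were lower. Among all genes tested 1.26% were called higher and 0.864% lower by the same rule. The groups did not overlap for 11 of the 68 with Tmem173iΔmye above and for 0 with Tmem173iΔmye below, against 6.03% and 6.47% of all genes. The log2 fold change was above 0 for 55 of the 68, against 49.4% of all genes, with a median of 1.21, while the median of all genes was -0.0042. For 7 of the 68, at most 3 counts were present in every Tmem173fl/fl tumor, so their fold changes depend on the method. The median was 0.84 over the other 61 and 1.21 over the 68 with these genes set against a floor of 3 counts per library.

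These counts depended on the filter and on single tumors. The filter admitted 9 genes through Tmem173iΔmye tumors alone, and 5 of these were among the 16, while 0 genes were admitted through Tmem173fl/fl tumors alone. Of the 59 genes that passed it in each genotype, 11 were called higher. The share of all genes called under that stricter rule was not computed, so this count has no background to be read against. The count of 16 fell to 8 without Tmem173iΔmye tumor 1, to 8 without Tmem173fl/fl tumor 2 and to 9 without Tmem173fl/fl tumor 3. Over all genes tested, calls of higher genes fell in the same fits, from 207 to 128, 129 and 126. The Igkv count was 24 without Tmem173fl/fl tumor 1, with 437 of all genes called higher. It was 18 without Tmem173iΔmye tumor 2 and 18 without tumor 3, with 263 and 283 of all genes. Without Tmem173iΔmye tumor 1 the median log2 fold change of the 68 was -0.03. All members share the total amount of antibody RNA in a tumor, so they are not independent of each other.

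**Figure D5:**
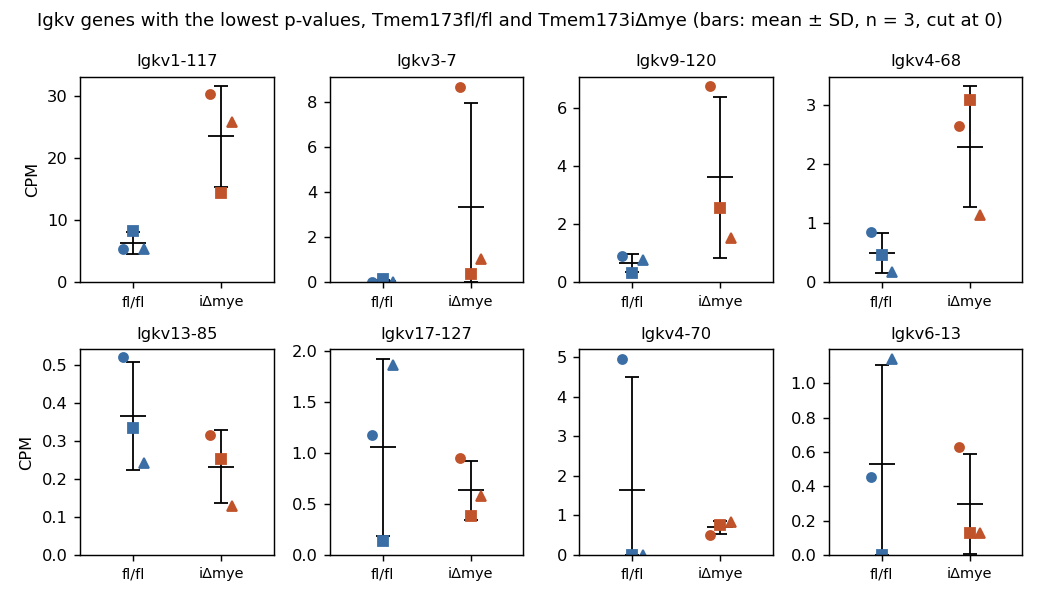
CPM (vertical axis, each panel with its own scale from 0) in Tmem173fl/fl (fl/fl) and Tmem173iΔmye (iΔmye) tumors for the 4 genes with the lowest p-values among those higher (upper row) and lower (lower row) in Tmem173iΔmye tumors. Points are tumors and bars are mean ± SD, n = 3, cut off at 0. In the upper row the groups do not overlap, and in the lower row they overlap in every panel.

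Igkv1-117 had the lowest p-value of the members. Its level was 6.36 ± 1.71 CPM in Tmem173fl/fl and 23.6 ± 8.18 CPM in Tmem173iΔmye tumors (SD, n = 3 each), with every Tmem173iΔmye tumor above every Tmem173fl/fl tumor. The log2 fold change was 1.89 ± 0.32 (SE), with an edgeR adjusted p of 0.742 and a DESeq2 adjusted p of 0.000202. It kept its sign in all 15 alternative analyses, between 1.66 and 2.14. Its near-copy Igkv1-110 stood at 7.52 ± 2.95 CPM against 27.7 ± 19.3 CPM with overlapping groups, a log2 fold change of 1.88 ± 0.60 and an edgeR adjusted p of 0.742.

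After Igkv1-117 and Igkv3-7, the lowest p-values belonged to Igkv9-120 and Igkv4-68. Igkv9-120 had 14, 5 and 13 counts in Tmem173fl/fl and 107, 41 and 24 in Tmem173iΔmye tumors, a log2 fold change of 2.41 ± 0.65 (SE; edgeR adjusted p = 0.742). Without Tmem173iΔmye tumor 1 the log2 fold change of Igkv9-120 was 1.59. Igkv4-68 had 13, 7 and 3 against 42, 49 and 18 counts, a log2 fold change of 2.20 ± 0.62 (SE; edgeR adjusted p = 0.742), which was 2.81 without Tmem173fl/fl tumor 1. The groups did not overlap for either gene. For Igkv3-7, with its 2 counts over all Tmem173fl/fl tumors, no fold is given, and its DESeq2 adjusted p was 0.0234 against an edgeR adjusted p of 0.742. As it was tested only because it is high in Tmem173iΔmye tumors, these p-values are no independent support for a difference.

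No gene passed the study's threshold as lower in Tmem173iΔmye tumors. Those of negative fold change with the lowest p-values were Igkv13-85 (8, 5 and 4 against 5, 4 and 2 counts), Igkv17-127 (18, 2 and 31 against 15, 6 and 9), Igkv4-70 (76, 0 and 0 against 8, 12 and 13) and Igkv6-13 (7, 0 and 19 against 10, 2 and 2). Their unadjusted p-values in edgeR ran from 0.347 to 0.473, and their groups overlapped. Igkv4-70 was an example of use by a single control tumor, with 3.90% of Igkv counts in Tmem173fl/fl tumor 1. Its sequence is 96.3% identical to that of Igkv4-59, which had 62 counts in the same tumor.

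Of shares rather than levels, the groups did not overlap for 9 of the 100 genes, 5 with Tmem173iΔmye tumors above and 4 with them below. For levels in CPM, 6.03% and 6.47% of all genes tested were apart in these directions, which is of the same order. The comparison is rough, because levels are not shares and the 100 genes include 13 with no count.

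Other genes of antibody-making cells differed in direction. Igha, the constant gene of IgA, had a log2 fold change of 1.25 ± 0.56, Jchain, which links IgA into dimers, of 1.10 ± 0.46, and Igkc of 1.40 ± 0.61 (SE; edgeR adjusted p = 0.742 for each). Without Tmem173iΔmye tumor 1 these were 0.76, 0.65 and 0.68, and without Tmem173fl/fl tumor 1 they were 1.91, 1.64 and 2.17. Ighm, the constant gene of IgM, had 856, 243 and 69 against 193, 557 and 129 counts, a log2 fold change of -0.45 ± 0.86 (SE; edgeR adjusted p = 0.903). Of 8 plasma cell markers 7 had a log2 fold change above 0, and their summed level was 816 to 928 CPM in Tmem173fl/fl and 960 to 1301 CPM in Tmem173iΔmye tumors. Most of that sum came from Sdc1 and Xbp1, which epithelial cells also express, while the plasma cell receptor gene Tnfrsf17 had 1 to 6 counts per tumor. The part of plasma cell number in the Igkv levels was not tested.

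Markers of B cells that have not become plasma cells followed another order of tumors. Ms4a1, which encodes the B cell surface protein CD20, had 310, 59 and 11 counts in Tmem173fl/fl and 11, 136 and 19 in Tmem173iΔmye tumors. Cd79a, which encodes a signalling chain of the B cell receptor, had 467, 54 and 10 against 37, 279 and 26 counts. Tmem173fl/fl tumor 1, the most even in Igkv usage, had the highest counts of these genes, and Tmem173iΔmye tumor 1, the next most even, had low counts. Rag1 and Rag2, which join the V genes, had 0 counts in all 6 tumors. The part of B cell content in the evenness was not tested.

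Heavy-chain variable genes showed a like extreme in Tmem173iΔmye tumor 3. There Ighv1-81 held 43.8% of the counts of 113 Ighv genes, and the effective number of Ighv genes was 15.0, against 28.1 to 46.1 in the other 5 tumors. The lead of Ighv1-81 was not particular to that tumor. It was also the most used Ighv gene in Tmem173fl/fl tumor 3 (8.84%) and in Tmem173iΔmye tumors 1 (8.88%) and 2 (23.0%).

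As checks of the libraries, Tmem173 itself had 1748, 2911 and 1705 counts in Tmem173fl/fl and 2291, 2245 and 1953 in Tmem173iΔmye tumors. The log2 fold change was 0.0015 ± 0.24 (SE; edgeR adjusted p = 0.9998). Tumor RNA includes cells in which the Cre is not active, and gene-level counts do not separate the floxed exons, so Tmem173 did not serve to check the genotype labels. All 6 colon epithelium markers were expressed. Reads from Y-linked genes numbered 2655 or more in Tmem173fl/fl tumor 1 and Tmem173iΔmye tumors 1 and 2 and at most 2 in the others, so sex was unbalanced between the groups. With this as a covariate in edgeR, 12 Igkv genes were called higher and 1 lower at the study's threshold, against 0.749% and 0.536% of all genes. The median log2 fold change of the 68 was then 0.59.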

How the data were processed

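RNA-seq was performed on 3 Tmem173fl/fl and 3 Tmem173iΔmye tumors, grouped by the GEO labels. Per the labels, polyA RNA libraries were made with the NEBNext Ultra kit. The submitters' processing notes name CASAVA 1.8, fastp, HISAT2 2.0.5, featureCounts 1.5.0-p3, DESeq2 1.20.0 and the build GRCm38 (mm10). Read length and strand setting are not given in the sources used here. The deposited values are unnormalized gene counts and, beside them, FPKM values from the authors, which equal counts divided by gene length and by a factor for each tumor. The table's columns from the authors' own comparison (fold changes and p-values) were not used.

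Shares, diversity measures and exact binomial 95% intervals were computed from the counts with Python 3.11.15, numpy 2.4.6 and scipy 1.17.1. CPM used TMM library sizes. Genes whose FPKM averaged 0.5 or more over the 6 tumors were tested on their counts with edgeR 4.0.16 (R 4.3.3), quasi-likelihood, group as the only term, Benjamini-Hochberg adjustment over all genes tested. The SE was derived from the fold change and the F statistic. Summed levels and diversity were given no test. DESeq2 1.42.0 and limma 3.58.1 were alternatives. The scripts were tested on simulated data.

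Named genes are the 12 with the highest mean share, the 3 most used in each tumor, the 4 with the lowest p-values in each direction, and the 5 with the largest ratio of highest to second highest share among genes with at least 100 counts in the highest tumor. Members and lists were chosen with earlier results of these data known. Sequences were taken from the GENCODE M21 transcript sequences, with GRCm38 coordinates from the GENCODE M21 annotation. Promoters and proteins were not analysed here, and the summed B cell marker list is not reported here. Fold changes are Tmem173iΔmye over Tmem173fl/fl.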

Additional observations from a re-analysis of the deposited data

How the results depend on the processing

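The number of Igkv genes past the study's threshold (16) was 8 to 24 when a tumor was left out, and 12 to 24 under the other alternatives. Of all genes tested, 126 to 437 were higher and 92 to 199 lower when a tumor was left out. Under the other alternatives 79 to 475 were higher and 57 to 397 lower. At an adjusted p of 0.05 the count was 0 in edgeR, 1 with no filter beyond any count (Igkv1-117, adjusted p = 0.0437) and 2 with DESeq2 (Igkv1-117 and Igkv3-7). Over all genes, the same fits called 0, 6 and 27. With a tumor left out, the log2 difference in total Igkv CPM ran from 0.78 to 1.797, the difference in effective number from -8.19 to 3.92, and that in the share of the most used gene (6.26 percentage points, pooled SD 10.6) from -1.44 to 11.7. Without Igkv1-110 and Igkv1-117, an alternative chosen after seeing the data, the last was 0.28 and the difference in effective number 5.05. Replicate numbers are shared by the groups, but nothing in the labels ties them to a litter or day. Deviations of same-numbered tumors correlated at 0.27, 0.0002 and 0.14, and those of differently numbered tumors at -0.32 to 0.19. As the labels give no pairing, the numbers were not taken to pair the tumors, and these correlations do not settle it. Under a replicate block 22 Igkv genes passed the threshold, all higher, against 251 higher and 126 lower of all genes. No Igkv gene passed the adjusted p under the block. With it the edgeR unadjusted p was 3.0e-05 for Igkc, 0.00013 for Jchain and 0.00031 for Igha (adjusted p = 0.24 for each). Without the block these unadjusted p-values were 0.052, 0.044 and 0.057. With 605 to 4738 Igkv counts per tumor, the least used genes rest on single reads in the shallowest tumors, and 3 tumors per group leave differences in evenness of the size seen here within the spread.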
